A study of Homo sapiens with 10 samples.

Results

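SK-N-AS is a human neuroblastoma cell line, and the comparison described here set 3 arrays of SK-N-AS cells exposed to a conjugate against 3 arrays of control cells. The members were the 6 SK-N-AS arrays among the 10 arrays of the study, and the measured features were 20893 gene probe sets. A probe set is a group of array probes whose signals are summarised into 1 value, given here as a log2 signal. The text concentrates on the 6533 probe sets (31.3%) whose signal was over that array's background threshold on each of the 6 SK-N-AS arrays. The threshold was the 95th percentile of the signals of 612 negative controls, and a probe set that passed it is said to be above background. Of the 6533, 5807 carried a gene symbol. A further 11918 probe sets were above background on none of the 6 arrays and 2442 on some of them.

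Treated cells received 30 µM BG-P1600-TAT for 48 h. Control cells, which the sample titles call untreated, were kept in PBS over the same period. BG-P1600-TAT is described in the series title as a PEGylated compound with a dual aim, the norepinephrine transporter and the thyrointegrin αvβ3. The titles of the SK-N-AS samples give the name as BG-P-TAT, which was read here as the same compound. The control arrays are numbered 25, 26 and 27 and the treated arrays 28, 29 and 30. Both arms were grown in the same serum-containing medium. The 4 arrays of a second line, SK-N-FI, with 2 control and 2 treated arrays, served here for comparisons between the lines, of the effect and of the array pattern. Separate cultures are not stated in the labels for the SK-N-AS arrays. P-values and intervals therefore measure the spread between these arrays, which may be technical. These are whole-culture RNA measurements, in which fewer cells of a type and less RNA per cell cannot be told apart.

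The norepinephrine transporter takes noradrenaline back into sympathetic neurons and is widely used to carry imaging agents into neuroblastoma. Integrin αvβ3 is a surface receptor for matrix proteins such as vitronectin and fibronectin, and it also has a binding site for thyroid hormone from which the mitogen-activated protein kinase (MAPK) pathway can be switched on. Integrin engagement is passed on through focal adhesion proteins, and inflammatory and growth signals meet at the NF-kB and AP-1 transcription factors. Neuroblastoma cells are described along a range from a noradrenergic state, close to sympathetic neurons, to a mesenchymal state.

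The genes of both targets were examined first. ITGAV, which encodes the αv subunit, gave log2 signals of 8.04, 10.11 and 9.61 in control cells (arrays 25 to 27) and 8.46, 9.22 and 10.98 in treated cells (arrays 28 to 30). Array 25 was the lowest of the controls and array 30 the highest of the treated arrays, and the arms overlapped. The difference, treated minus control, was 0.30 on the log2 scale with a 95% interval of -1.24 to 1.83 (limma adjusted p = 1.00). SLC6A2, the norepinephrine transporter gene, and ITGB3, the β3 subunit gene, were above background on 0 of the 6 arrays. Their signals therefore describe the array background and not a transcript level.

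The line label was checked against marker genes. Of 20 measured noradrenergic genes, 9 were above background on all 6 arrays, among them the transcription factor genes HAND2, GATA3, ISL1 and TBX2. PHOX2A, DBH, TH and MYCN were above background on 0 arrays. Of 23 measured mesenchymal genes, 13 were above background on all 6 arrays, among them TWIST1, SNAI2, ZEB1, VIM and CD44. Markers of other cell types were mostly at background. None of 7 T cell, 8 endothelial, 8 epithelial, 5 glial or 4 erythroid markers was above background on all 6 arrays, and 1 of 8 macrophage markers was, the lysosomal gene CD68. Of 7 fibroblast markers, 5 were above background on all 6 arrays (DCN, LUM, PDGFRA, PDGFRB and THY1), and COL1A1, a defining fibroblast gene, was on 0. The mean signal of the 7 fibroblast markers ranged from 9.45 to 10.25 in control arrays and from 9.74 to 10.43 in treated arrays, so the arms overlapped.

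The spread between arrays of an arm was large beside the difference between the arms. Over the 6533 probe sets above background, the median SD among 3 control arrays was 0.27 and among 3 treated arrays 0.27, on the log2 scale, and the treated SD was the larger in 3267 of them (50.0%). The median size of the difference between arm means was 0.14. Pairs of arrays within an arm had Pearson correlations across these probe sets of 0.947 to 0.986 (median 0.973), and pairs from different arms of 0.921 to 0.988 (median 0.982), so that arrays of an arm were no more alike than arrays of different arms. Genes are not independent replicates, and these correlations are descriptions. The median SD of the control arm was 0.16 without array 25, which stood farthest from the other controls.

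A single pattern carried most of this spread. The leading principal component of the probe sets above background held 71.2% of their variance among the 6 arrays, and 93.9% of the component's own variance lay within the arms. Control arrays 25, 26 and 27 scored -36.0, 17.4 and 1.72, against -21.3, 6.03 and 32.2 for treated arrays 28, 29 and 30. The bacterial and phage spike-in RNAs added before hybridisation (bioB, bioC, bioD and cre) followed nearly the opposite order. Their mean log2 signals were 11.26, 10.54 and 10.82 in the control arrays and 11.15, 10.96 and 10.50 in the treated arrays. Arrays 25 and 28 had the highest spike-in signals and the lowest scores, and arrays 26 and 30 the lowest spike-in signals and the highest scores. The orders differed only in arrays 27 and 29. Whether hybridisation sets this pattern was not tested.

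The same genes separated the arrays in each arm. Across the 6533 probe sets, the difference between control arrays 26 and 25 and the difference between treated arrays 30 and 28 were correlated, with Pearson's r at 0.826 and Spearman's rho at 0.739. These differences share no array. Among the 500 probe sets with the highest loadings on the component, the median difference was 1.59 between arrays 26 and 25 and 1.53 between arrays 30 and 28. Among the 500 with the lowest loadings, the medians were -0.77 and -0.84. The loadings were computed from arrays that include 25, 26, 28 and 30. Opposite signs at the high and low ends were therefore built into this choice of probe sets, and these medians are descriptions. The genes at these ends also differed in the length of genome they span in RefSeq, with a median of 62.0 kb at the high end, 28.3 kb in the middle and 13.8 kb at the low end. Over all 5807 named genes above background, each of which had a span, the loading and the span had a Spearman rho of 0.388. The difference between arms leaned the same way, with a median of 0.32 at the high end and -0.18 at the low end. The component was fitted with the difference between arms left in, so a lean was built into this choice too.

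**Figure D1:**
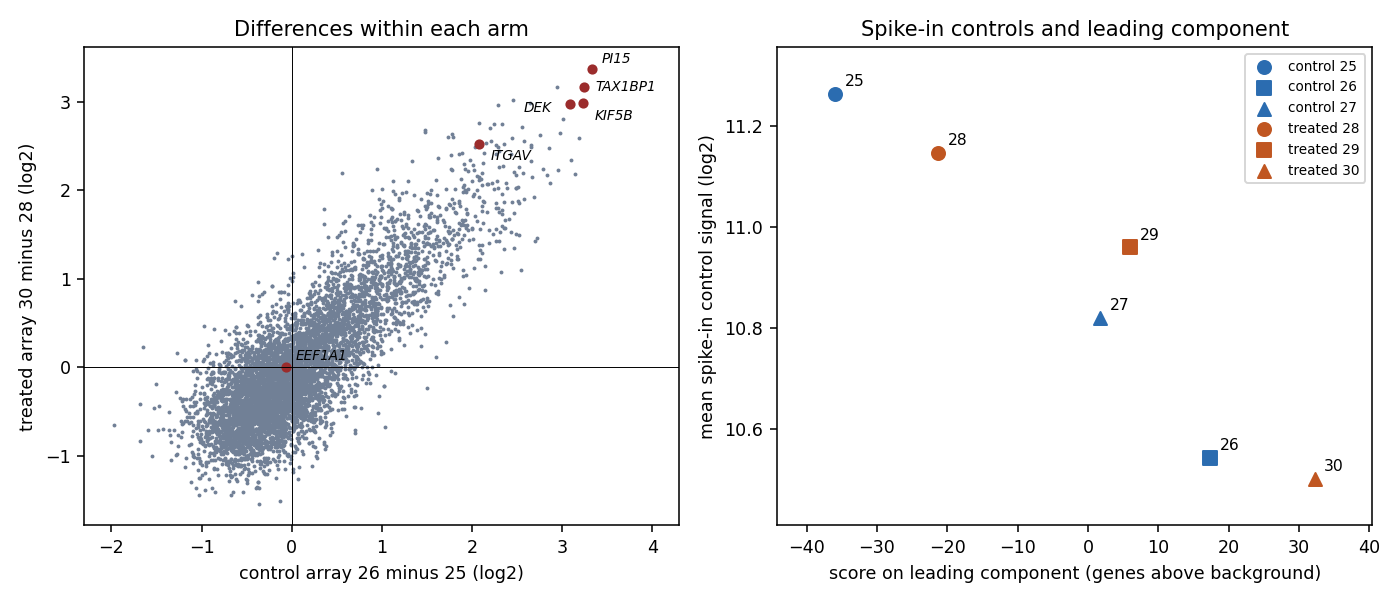
Left, the log2 difference between control arrays 26 and 25 against that between treated arrays 30 and 28 for each of 6533 probe sets above background, with 6 genes marked. Right, the mean log2 signal of 4 hybridisation spike-in controls against the score on the leading component for each array, where arrays 25 and 28 lie at one end and arrays 26 and 30 at the other.

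The genes with the largest spread showed this pattern plainly. PI15, a secreted peptidase inhibitor, gave 12.33, 15.66 and 14.76 in control cells (arrays 25 to 27) and 12.72, 14.70 and 16.09 in treated cells (arrays 28 to 30). Array 25 was the lowest control and array 28 the lowest treated array, each far below the rest of its arm, and the difference between arms was 0.25 (-1.91 to 2.41). KIF5B, a kinesin motor heavy chain, gave 8.34, 11.57 and 10.04 in control cells and 9.01, 10.54 and 12.002 in treated cells. TAX1BP1, an autophagy receptor that also restrains NF-kB, MBNL2, a splicing regulator, and DEK, a chromatin protein, completed the 5 genes with the largest pooled SD. Their arms overlapped, and each of the 5 intervals included 0. Altogether 123 of the 6533 probe sets had a pooled SD over 1, and 238 had a pooled SD under 0.1.

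At the other end, RPRD2, a protein that binds the tail of RNA polymerase II, gave 9.61, 9.61 and 9.58 in control cells and 9.30, 9.29 and 9.27 in treated cells. The 3 treated arrays were all below the 3 control arrays. The difference was -0.31, and its limma interval of -0.73 to 0.10 included 0, because limma draws the spread of each probe set towards that of all of them. EEF1A1, the translation elongation factor, gave 19.15, 19.09 and 19.09 in control cells and 19.27, 19.23 and 19.27 in treated cells, with a difference of 0.15 (-0.27 to 0.56). RPL6, a ribosomal protein gene, SAAL1 and PDGFRB, the PDGF receptor β, had differences of 0.07, 0.15 and -0.07. In all 5 of these genes the arms did not overlap, at differences of at most 0.31 in size, against 5.34% of probe sets above background. They were chosen for the smallest spread, so that even a small difference parts their arms.

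No probe set passed the test between treated and control cells. Limma with Benjamini-Hochberg adjustment called 0 of 20893 probe sets (0%), with a smallest adjusted p of 1.00. At an unadjusted p under 0.05 there were 540 (2.58%), and the plain equal-variance test with the same adjustment also called 0. Among the 6533 probe sets above background, 64 had an unadjusted p under 0.05 (0.98%), of which 20 were higher in treated cells (0.306%) and 44 lower (0.674%). The 64 became 197 without treated array 28, 102 without control array 26, 42 without treated array 30 and 36 without treated array 29.

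The differences were small in these 6 arrays. Above background, they ranged from -0.96 for H2BC14 to 0.91 for SEPTIN7, a cytoskeletal GTPase gene whose pooled SD was 1.21, and none exceeded 2-fold. A difference of more than 1.5-fold in either direction was found in 102 probe sets. The mean was lower in treated cells for 3554 (54.4%) and higher for 2979 (45.6%), against 50.9% lower over all 20893, and the median difference was -0.02. The 95% interval lay within 2-fold in both directions for 5587 probe sets (85.5%), and within 1.5-fold for 23.4%. A 2-fold difference was thus outside the interval for most of these genes, and a 1.5-fold difference was not.

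Control and treated arrays did not overlap for 349 probe sets above background (5.34%), with all treated arrays higher for 121 (1.85%) and lower for 228 (3.49%). Over all 20893 probe sets the share was 7.28%. Without arrays 25 and 28, which leaves 2 arrays in each arm, 626 of the 6533 were higher without overlap and 1317 lower. Arms of 2 arrays separate more readily than arms of 3 by ordering alone, so these counts cannot be set beside the 349.

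**Figure D2:**
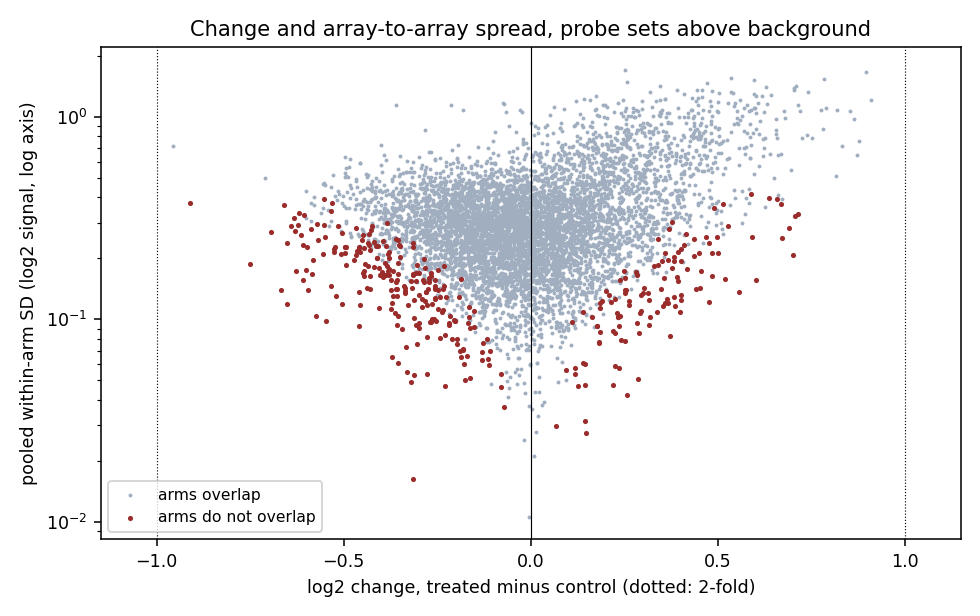
The log2 difference between treated and control means against the pooled SD within arms (log axis) for 6533 probe sets above background, with the 349 whose arms did not overlap in red and dotted lines at a 2-fold difference. No point reaches a 2-fold difference, and the points with a large spread lie mostly at higher treated means.

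Among named genes whose arms did not overlap, the 10 with the largest higher means in treated cells had differences of 0.56 to 0.71. FUT8, which adds the core fucose to N-glycans, integrins among them, gave 8.68, 9.34 and 9.47 in control cells (arrays 25 to 27) and 9.90, 9.67 and 10.07 in treated cells (arrays 28 to 30). Control array 25 lay lowest, apart from the other 2 controls, and the lowest treated array was 29. The difference was 0.71 (0.13 to 1.30, limma adjusted p = 1.00).

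CPNE3, a calcium-dependent membrane-binding protein, gave 7.95, 8.34 and 8.27 in control cells and 8.64, 8.67 and 9.36 in treated cells. IFIT5, an interferon-inducible RNA-binding protein, gave 8.03, 8.20 and 8.12 in control cells and 8.43, 8.78 and 9.21 in treated cells. In both genes treated array 30 stood above the rest, with differences of 0.71 (0.13 to 1.28) and 0.69 (0.15 to 1.23). AP1AR, a regulator of the AP-1 clathrin adaptor in vesicle transport, which is unrelated to the AP-1 transcription factor, gave 9.97, 10.39 and 10.68 in control cells and 10.99, 11.04 and 11.03 in treated cells. Here the spread lay in the controls, and the difference was 0.67 (0.15 to 1.19).

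The other 6 of these genes belong to varied processes. TOMM70, a mitochondrial import receptor, had a difference of 0.67 (0.05 to 1.29), and PAIP1, a partner of the poly(A)-binding protein in translation, of 0.64 (-0.01 to 1.28). CDK11B, a kinase of transcription and splicing with a near-identical neighbour copy, gave 8.31, 8.71 and 8.63 in control cells and 9.19, 9.19 and 9.08 in treated cells. Which copy its probes read was not tested. TMOD1, an actin filament capping protein, SLC33A1, an acetyl-CoA transporter, and PDCL, a chaperone of G protein βγ subunits, had differences of 0.59, 0.59 and 0.56. Of the 10 intervals, 8 excluded 0, against 64 of the 6533 over all probe sets above background (0.98%). The genes were chosen for large differences without overlap, which favours such intervals. None of them passed the adjusted test.

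The 10 largest lower means ranged from -0.69 to -0.62, and all 10 intervals excluded 0, against 0.98% of probe sets above background. These genes were chosen in the same way, so their intervals are descriptions. MOCS3, which activates sulphur carriers for molybdenum cofactor synthesis and transfer RNA, gave 9.78, 9.08 and 9.34 in control cells (arrays 25 to 27) and 8.80, 8.54 and 8.77 in treated cells (arrays 28 to 30). YJU2B, a splicing factor relative, gave 8.22, 8.16 and 8.10 in control cells and 7.53, 7.66 and 7.29 in treated cells. The gap between the arms of YJU2B was wider than the spread within either, and the difference was -0.67 (-1.12 to -0.22, limma adjusted p = 1.00).

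FAM120AOS, a gene on the strand opposite FAM120A, gave 9.70, 9.63 and 9.87 in control cells and 9.20, 9.07 and 8.97 in treated cells. The target protocol of the labels yields sense targets, and whether FAM120A contributes to this signal was not tested. SLC25A37, the mitochondrial iron importer mitoferrin, gave 9.57, 9.58 and 9.99 in control cells and 8.79, 9.16 and 9.23 in treated cells. Both genes had a difference of -0.65. RNF185, a ubiquitin ligase of endoplasmic reticulum quality control, MTFR1L, a regulator of mitochondrial shape, and SEC24C, a coat protein of export vesicles, had differences of -0.66, -0.64 and -0.62. POM121, a nuclear pore membrane protein with near-identical relatives, had a difference of -0.63.

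TAPBP encodes tapasin, which loads peptides onto HLA class I. Its signals were 11.005, 11.16 and 11.27 in control cells and 10.85, 10.03 and 10.67 in treated cells, with a difference of -0.63 (-1.20 to -0.06). FOSL1, the AP-1 subunit FRA1, gave 8.28, 8.20 and 7.94 in control cells and 7.71, 7.11 and 7.71 in treated cells, with a difference of -0.63 (-1.17 to -0.09). In both genes treated array 29 was the lowest. With the leading component as a covariate, the differences were 0.62 for FUT8, 0.53 for TOMM70, -0.63 for YJU2B and -0.61 for FOSL1.

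**Figure D3:**
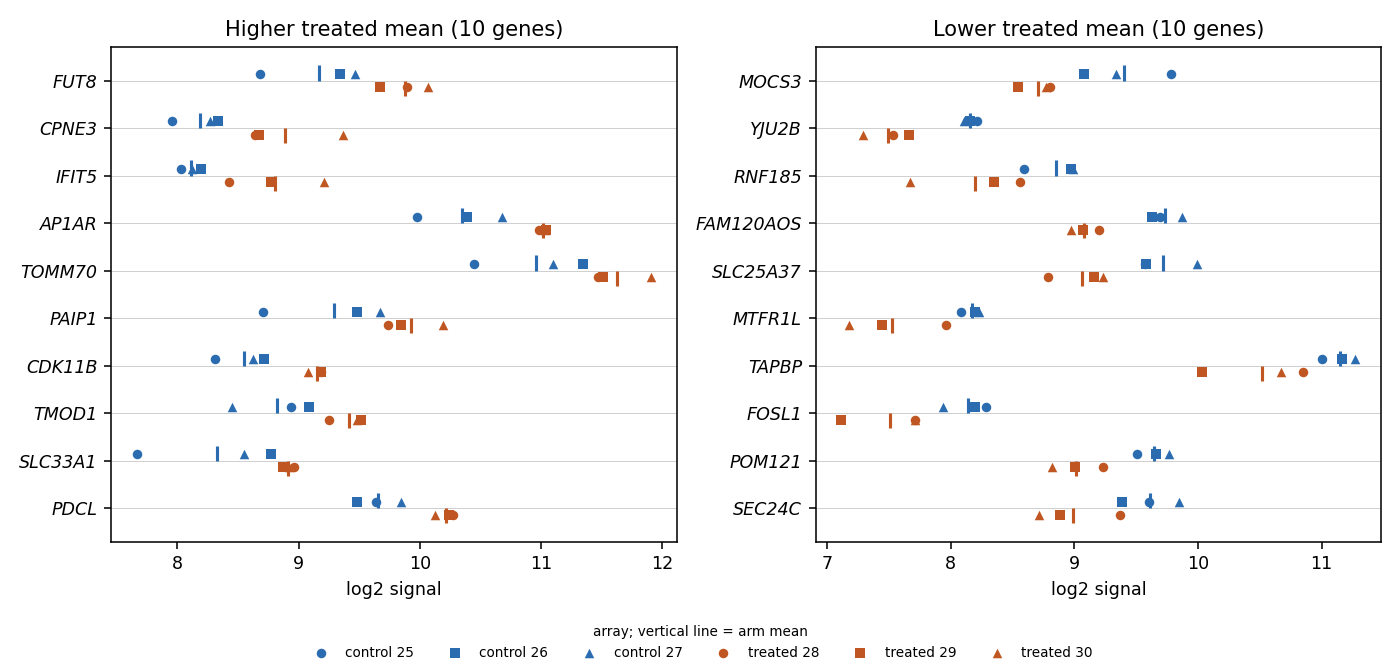
The log2 signal of each array for the 10 genes with the largest higher means (left) and the 10 with the largest lower means (right) among named genes above background whose arms did not overlap. Vertical lines are arm means, and treated points lie wholly to one side of control points because the genes were chosen so.

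The NF-kB family was examined by role. NF-kB dimers are held in the cytoplasm by inhibitors such as NFKBIA, released on inflammatory signals, and shut off again by proteins that they induce, such as TNFAIP3. Of 16 measured genes for subunits, inhibitors and regulators, 9 were above background on all 6 arrays. All 9 of these had a lower mean in treated cells, where 54.4% of probe sets above background did, and the median difference was -0.39 against -0.02. The arms did not overlap, with treated cells lower, for 5 of the 9 (background 3.49%). No member passed the adjusted test. This list and those below were chosen with earlier results of these data known, the lower NF-kB values included. Their counts and medians are therefore descriptions, and the shares beside them are not a test.

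Of the 5 members without overlap, 4 were subunits. NFKB1, the p105 precursor of p50, gave 11.92, 11.68 and 11.89 in control cells (arrays 25 to 27) and 11.38, 11.47 and 10.97 in treated cells (arrays 28 to 30). NFKB2, the p100 precursor of p52, gave 12.60, 11.96 and 12.09 in control cells and 11.95, 11.84 and 11.58 in treated cells. NFKB2 separated only narrowly, between control array 26 and treated array 28, and NFKB1 by more. RELB, the partner of p52, gave 8.41, 7.98 and 8.31 in control cells and 7.73, 7.92 and 7.53 in treated cells, and RELA, the main activating subunit, 9.35, 8.86 and 8.97 against 8.83, 8.74 and 8.45. The differences were -0.55 for NFKB1 (-1.04 to -0.06), -0.43 for NFKB2 (-0.97 to 0.11), -0.51 for RELB (-0.996 to -0.02) and -0.39 for RELA.

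Among the inhibitors and feedback genes, TNFAIP3, the ubiquitin-editing enzyme A20, gave 9.95, 10.22 and 10.22 in control cells and 9.75, 9.72 and 9.54 in treated cells. The arms did not overlap, and the difference was -0.46 (-0.91 to -0.01). NFKBIA, the inhibitor IκBα, gave 14.78, 14.29 and 14.61 in control cells and 14.28, 14.45 and 13.89 in treated cells, so that control array 26 lay below treated array 29. The differences of NFKBIA, of the A20 partner TNIP1, of the adaptor TRAF1 and of the nuclear inhibitor NFKBIZ were -0.36, -0.39, -0.35 and -0.32, and their arms overlapped. The kinase genes CHUK, IKBKG and MAP3K14 were above background on 0 arrays.

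Genes that NF-kB is known to induce were treated as a separate list, and 10 of 17 measured were above background on all 6 arrays. Of these, 8 had a lower mean in treated cells, the median difference was -0.36, and the arms of 1 did not overlap, against 54.4% lower and 3.49% lower without overlap over all probe sets above background. That gene was LIF, an interleukin-6 family cytokine, with 10.08, 10.04 and 10.52 in control cells and 9.60, 9.41 and 9.79 in treated cells and a difference of -0.61 (-1.11 to -0.10). ICAM1, an adhesion molecule, gave 9.85, 9.26 and 9.69 in control cells and 9.38, 8.95 and 8.85 in treated cells, with a difference of -0.54 (-1.09 to 0.01). CSF1, the macrophage growth factor, gave 12.45, 12.41 and 12.41 in control cells and 12.41, 12.05 and 11.66 in treated cells.

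The controls of CSF1 lay close together and treated array 28 lay among them, with a difference of -0.38. CCL20, a chemokine, gave 13.18, 13.75 and 14.37 in control cells and 13.25, 13.30 and 13.50 in treated cells, where control array 25 was the lowest of all. PTGS2, the inducible cyclooxygenase, and CXCL8, the neutrophil chemokine interleukin-8, had differences of -0.40 and -0.34, with overlapping arms. IL1B and CCL2, bright throughout, differed by -0.21 and -0.18, and VCAM1 and IL11 by 0.03 and 0.04. IL6, IL1A and CXCL1 were above background on 0 arrays.

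The medians of both NF-kB lists were recomputed. With the leading component as a covariate, the medians were -0.38 for the subunits and inhibitors and -0.37 for the induced genes. When 1 array was left out at a time, the first median stayed between -0.50 and -0.39 and the second between -0.39 and -0.17, the value nearest 0 coming without control array 27. The second was also -0.21 without control array 26 and -0.23 without treated array 28. Without both array 25 and array 28 the medians were -0.42 and -0.52.

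The promoters of these genes were searched for the NF-kB (kappaB) consensus, since 9 members of the first list and 8 of the second had lower means together. The 250 bases before the first listed start of each gene in RefSeq (GRCh38.p14) were read on both strands. A promoter was found for 8 of the 9 subunit and inhibitor genes above background and for 7 of the 10 induced genes. The motif was present in 4 of 8 (50.0%) and 2 of 7 (28.6%), against 9.57% of 27305 promoters and 11.1% of 4895 promoters of genes above background. Both lists were written from genes tied to NF-kB, so a higher share was built into their choice and says nothing of the treated arrays. The sets are also small. Whether the motif bears on the differences between arms was not tested. The stretches that hold it are given so that the 6 promoters with a match can be compared, with the motif in capitals and each read 5′ to 3′ on the strand of its gene.
NFKB1, chr4:102501265-102501358, plus strand: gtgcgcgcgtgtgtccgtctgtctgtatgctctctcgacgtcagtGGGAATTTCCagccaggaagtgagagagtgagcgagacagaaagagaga
NFKBIA, chr14:35404776-35404875, minus strand: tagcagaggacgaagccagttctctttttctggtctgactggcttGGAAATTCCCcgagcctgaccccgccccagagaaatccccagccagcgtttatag
NFKBIZ, chr3:101827740-101827821, plus strand: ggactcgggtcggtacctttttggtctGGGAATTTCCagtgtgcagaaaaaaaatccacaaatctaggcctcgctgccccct
TNFAIP3, chr6:137867147-137867258, plus strand: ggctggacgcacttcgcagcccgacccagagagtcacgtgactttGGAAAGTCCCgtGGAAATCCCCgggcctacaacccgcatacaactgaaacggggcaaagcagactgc
CCL20, chr2:227813718-227813817, plus strand: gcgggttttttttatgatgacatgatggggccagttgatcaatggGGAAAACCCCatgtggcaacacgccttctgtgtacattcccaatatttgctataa
VCAM1, chr1:100719635-100719734, plus strand: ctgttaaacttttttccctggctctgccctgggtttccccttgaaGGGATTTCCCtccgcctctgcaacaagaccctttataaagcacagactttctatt
The motif stood 49 bases before the start of NFKB1, 81 before NFKBIA, 223 before NFKBIZ, 79 before CCL20 and 62 before VCAM1, and TNFAIP3 held 2 copies, 67 and 55 bases before its start. The 10-base match of NFKB1 is the same as that of NFKBIZ, and the match of NFKBIA is its reverse complement. In NFKBIA, TNFAIP3 and CCL20 the consensus lies on the strand opposite the gene, so the capitals show its reverse complement. A match describes these letters only, and VCAM1 held it with a difference of 0.03 between the arms.

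The AP-1 and immediate early genes, which respond to growth factor and stress signals, had 6 of 18 measured members above background on all 6 arrays. All 6 had a lower mean in treated cells, with a median difference of -0.34, and the arms of 3 did not overlap, with treated cells lower. Over all probe sets above background these shares were 54.4% and 3.49%. FOSL2, a FOS relative, gave 9.21, 9.42 and 9.10 in control cells and 8.81, 8.92 and 8.88 in treated cells, with a difference of -0.37 (-0.81 to 0.07). IER3, an NF-kB and MAPK responsive gene, gave 17.11, 16.85 and 17.13 in control cells and 16.84, 16.72 and 16.69 in treated cells. In IER3 control array 26 lay next to treated array 28, and the difference was -0.28 (-0.73 to 0.16). JUNB, IER2 and KLF6 had differences of -0.44, -0.30 and -0.25. FOS, FOSB, JUND and EGR1 were above background on 0 arrays.

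**Figure D4:**
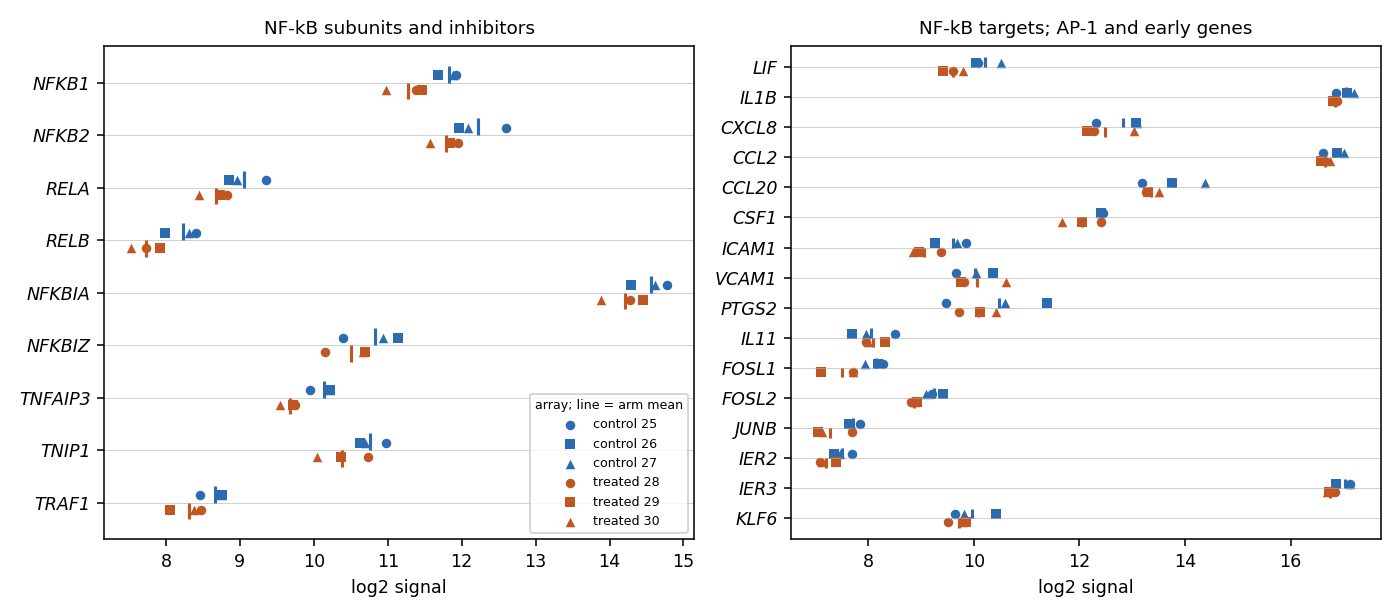
The log2 signal of each array for NF-kB subunits and inhibitors (left) and for NF-kB induced genes followed by AP-1 and immediate early genes (right), above background on all 6 arrays. Treated means, drawn as lines, lie below control means in all 9 genes on the left and in 14 of the 16 on the right, the exceptions being VCAM1 and IL11.

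The direct output genes of the RAS and MAPK pathway, mostly its own feedback inhibitors, were 13 of 15 above background. Treated cells had a lower mean in 10 and were lower without overlap in 2, against 54.4% and 3.49% of all probe sets above background. The median difference was -0.14, and 11 of the 13 intervals lay within 2-fold, against 85.5% of probe sets above background. The median was -0.057 without treated array 29, -0.088 without treated array 30 and -0.084 with the leading component as a covariate. With the spike-in mean as a covariate it was -0.14. SPRY4, a feedback inhibitor, gave 8.50, 8.66 and 8.40 in control cells and 7.95, 8.44 and 7.78 in treated cells, with a difference of -0.46 (-0.98 to 0.06). The phosphatase genes DUSP4 and DUSP6 differed by -0.19 and -0.14, and CCND1, encoding cyclin D1, by -0.07. The members with non-overlapping arms were FOSL1 and IER3, which the AP-1 list also holds.

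Integrin subunits were above background for 8 of 18 measured genes, 5 with a higher and 3 with a lower mean in treated cells (median 0.09). The median became -0.20 without control array 25, -0.16 without treated array 30 and -0.16 with the leading component as a covariate. With the spike-in mean as a covariate it was 0.08. ITGB1, the common β1 partner, gave 14.27, 15.88 and 15.17 in control cells and 14.50, 15.52 and 16.20 in treated cells, in the same order within each arm as ITGAV. ITGA5, the fibronectin receptor subunit α5, gave 11.44, 11.15 and 11.61 in control cells and 11.46, 10.94 and 11.13 in treated cells, with a difference of -0.22 (-0.74 to 0.29). ITGB5, another partner of αv, gave 7.46, 7.54 and 7.95 against 8.39, 7.60 and 7.53. Only treated array 28 was high, and the difference was 0.18 (-0.45 to 0.82). The arms of all 8 integrin genes above background overlapped, where those of 5.34% of all probe sets above background did not.

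Focal adhesion proteins, which link integrins to actin and to kinases, were above background for 14 of 19 measured genes, 8 with a higher and 6 with a lower mean (median 0.07). Treated cells were higher without overlap in 1 and lower in 2, against 1.85% and 3.49% of all probe sets above background. The median became -0.037 without control array 25 and -0.074 without treated array 28, and was 0.026 without control array 26. PXN, the scaffold paxillin, gave 8.94, 8.83 and 8.83 in control cells and 8.67, 8.01 and 8.07 in treated cells, with a difference of -0.62 (-1.14 to -0.09). BCAR1, the scaffold p130Cas, gave 8.10, 8.005 and 8.29 against 7.98, 7.20 and 7.49, with a difference of -0.57 (-1.13 to -0.02). In both scaffolds treated array 28 lay near the controls and arrays 29 and 30 lay lower. PTK2, the focal adhesion kinase, gave 8.72, 9.23 and 8.75 in control cells and 9.76, 9.24 and 9.28 in treated cells, with a difference of 0.53 (-0.02 to 1.08).

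PTK2 barely separated, since control array 26 lay just under treated array 29. ILK, the integrin-linked kinase, gave 12.18, 11.44 and 11.52 in control cells and 11.88, 11.26 and 10.78 in treated cells, with a difference of -0.40 (-1.13 to 0.32) and overlapping arms. The actin-binding genes VCL, ACTN1 and ACTN4 differed by 0.12, 0.07 and 0.06. FERMT2 and LIMS1, an integrin activator and an ILK partner, had differences of 0.50 and 0.45, and in both, control array 25 was the lowest of the 6 arrays.

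Matrix proteins that integrins bind were above background for 10 of 17 measured genes. Treated cells had a lower mean in 9 and were lower without overlap in 2, against 54.4% and 3.49% of all probe sets above background. The list median was -0.08. The median was -0.0025 without control array 26 and -0.18 without control array 25. FN1, encoding fibronectin, gave 8.11, 9.05 and 9.17 in control cells and 8.38, 7.75 and 8.60 in treated cells. Control array 25 lay among the treated arrays, and the difference was -0.53 (-1.29 to 0.23). SPARC, a matrix glycoprotein, and NID1, a basement membrane linker, had non-overlapping arms at differences of -0.17 (-0.60 to 0.27) and -0.18 (-0.60 to 0.24). LGALS1, the lectin galectin-1, differed by -0.31. VTN, SPP1 and THBS1, which encode the αvβ3 ligands vitronectin, osteopontin and thrombospondin-1, were above background on 0 arrays.

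Of 15 measured collagen genes, 3 were above background, all with a lower mean in treated cells and 1 lower without overlap. The shares over all probe sets above background were 54.4% and 3.49%. COL1A2, a chain of type I collagen, gave 8.23, 8.50 and 8.31 in control cells and 7.44, 8.06 and 8.04 in treated cells, with a difference of -0.50 (-1.04 to 0.03) and no overlap. COL6A1 and COL6A2, of type VI collagen, differed by -0.36 and -0.17, with overlapping arms. The median of the 3 genes, -0.36, became -0.15 when treated array 30 was left out and -0.20 when control array 25 was.

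Thyroid hormone and catecholamine genes were mostly at background. Of 12 measured genes of thyroid hormone receptors, deiodinases and transporters, 3 were above background on all 6 arrays. THRA, the receptor α, gave 9.42, 8.61 and 8.75 in control cells and 9.03, 8.83 and 8.26 in treated cells, with a difference of -0.22 (-0.89 to 0.44). SLCO4A1, a thyroid hormone transporter, and RXRB, a partner of the receptor, differed by 0.28 and -0.02. THRB, DIO1 and DIO3 were above background on 0 arrays.

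Of 11 measured catecholamine genes, 3 were above background. DDC, which makes dopamine, gave 12.40, 11.92 and 12.05 in control cells and 12.39, 12.12 and 11.71 in treated cells, and MAOA, which breaks catecholamines down, 7.96, 7.94 and 8.13 against 8.27, 8.22 and 8.29. The differences were -0.05 (-0.61 to 0.51) for DDC and 0.25 (-0.17 to 0.68) for MAOA, whose arms did not overlap. GCH1, which makes the cofactor of tyrosine hydroxylase, differed by -0.20.

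Cell cycle genes were described by phase. Of 26 measured DNA replication genes, 15 were above background, 6 with a higher and 9 with a lower mean (median -0.03), and all 15 intervals lay within 2-fold, against 85.5% of probe sets above background. RRM1 and RRM2, the subunits of ribonucleotide reductase, differed by 0.28 (-0.19 to 0.75) and -0.29 (-0.77 to 0.18). MCM5, of the replicative helicase, and RFC2, of the clamp loader, differed by 0.22 and -0.19. PCNA, the replication clamp, differed by 0.05.

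Of 28 measured mitosis genes, 11 were above background, 4 with a higher and 7 with a lower mean (median -0.07). The median was -0.015 without control array 25, -0.18 without control array 26 and -0.19 without treated array 28. AURKA, the spindle pole kinase Aurora A, gave 9.97, 9.82 and 10.06 in control cells and 9.68, 9.03 and 9.44 in treated cells, with a difference of -0.57 (-1.08 to -0.05). CCNB1, cyclin B1, gave 9.85, 9.46 and 9.67 against 9.499, 9.13 and 9.21, with a difference of -0.38 (-0.86 to 0.10). BUB1, a checkpoint kinase, lay the other way, with 7.60, 7.44 and 7.71 in control cells and 7.95, 7.81 and 7.87 in treated cells and a difference of 0.29 (-0.14 to 0.73). TPX2, the activator of Aurora A, differed by -0.27. AURKA and BUB1 were the members whose arms did not overlap, in opposite directions. Over all probe sets above background, 1.85% were higher and 3.49% lower without overlap.

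Replication-dependent histone genes were above background for 21 of 30 measured. Treated cells had a lower mean in 19 and were lower without overlap in 1, against 54.4% and 3.49% of all probe sets above background. The list median was -0.18. Histone genes form multigene families with near-identical members, whose signals the probes may share. H2BC14 gave 12.75, 12.88 and 11.63 in control cells and 11.92, 10.59 and 11.88 in treated cells, and its difference of -0.96 had an interval of -1.94 to 0.03. H4C3 gave 16.26, 16.25 and 15.59 in control cells and 16.001, 15.05 and 14.91 in treated cells, with a difference of -0.71 (-1.46 to 0.04). H2BC12 alone had non-overlapping arms, at -0.43 (-0.94 to 0.07), and H3C2 differed by -0.55. Averaged over the 21 genes, the deviation from each gene's mean was 0.50 on array 25, 0.17 on array 26 and -0.29 on array 27, against 0.26 on array 28, -0.30 on array 29 and -0.35 on array 30. Arrays 25 and 28, with the brightest spike-ins, were the highest of their arms. The list median became 0.02 without control array 25 and -0.40 without control array 27. It was -0.05 with the leading component as a covariate and -0.18 with the spike-in mean as a covariate.

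Stress pathways were examined next. Heat shock genes, whose products fold proteins, were above background for 14 of 18 measured. Treated cells had a higher mean in 11 and were higher without overlap in 2, against 45.6% and 1.85% of all probe sets above background. The list median was 0.09. The median was 0.040 without treated array 28 and 0.19 without control array 27. HSPA1A, the inducible HSP70 with a near-identical copy, gave 9.84, 9.46 and 9.87 in control cells and 10.35, 9.99 and 10.14 in treated cells, with a difference of 0.44 (-0.05 to 0.92) and no overlap. HSP90AB1, the constitutive HSP90, also had non-overlapping arms, at a difference of 0.12. HSP90AA1, the inducible HSP90, gave 10.29, 12.40 and 12.47 in control cells and 11.62, 12.41 and 13.50 in treated cells. The difference of 0.79 (-0.64 to 2.22) was 0.35 with the leading component as a covariate. HSPH1, an HSP110, and DNAJA1, an HSP70 cochaperone, had differences of 0.71 and 0.30, with overlapping arms. That of HSPH1 ranged from 0.040 without control array 25 to 1.28 without treated array 28, and was 0.24 with the component as a covariate.

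Known p53 target genes were above background for 9 of 23 measured. Treated cells had a lower mean in all 9 and were lower without overlap in 2, against 54.4% and 3.49% of probe sets above background. The list median was -0.24, and all 9 intervals lay within 2-fold, against 85.5% of probe sets above background. TNFRSF10B, the death receptor DR5, gave 11.05, 10.89 and 11.05 in control cells and 10.72, 10.77 and 10.59 in treated cells, with a difference of -0.31 (-0.74 to 0.12). XPC, a DNA damage sensor, gave 7.48, 7.34 and 7.40 against 7.02, 7.19 and 7.25, with a difference of -0.26 (-0.69 to 0.17). These were the members with non-overlapping arms. GDF15, a stress cytokine, and BAX, a cell death effector, differed by -0.40 and -0.28, and CDKN1A, the inhibitor p21, by -0.13.

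Genes of the ATF4 stress response, which answers to amino acid shortage and misfolded proteins, were above background for 17 of 19 measured. Treated cells had a lower mean in 13 and were lower without overlap in 2, against 54.4% and 3.49% of all probe sets above background. The list median was -0.19. The median was -0.039 without treated array 30, -0.11 without control array 25 and -0.31 without treated array 28. STC2, a secreted stress glycoprotein, gave 11.49, 11.66 and 11.57 in control cells and 11.24, 11.19 and 11.18 in treated cells, with a difference of -0.37 (-0.79 to 0.05). DDIT3, the transcription factor CHOP, gave 8.41, 8.07 and 7.95 against 7.81, 7.55 and 7.84, with a difference of -0.41 (-0.89 to 0.07). Both had non-overlapping arms. CHAC1, a glutathione-degrading enzyme, and CEBPB, a transcription factor, differed by -0.36 and -0.27, and ASNS, asparagine synthetase, by 0.02.

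Metallothioneins and zinc genes were above background for 8 of 12 measured. Treated cells had a lower mean in all 8 and were lower without overlap in 1, against 54.4% and 3.49% of probe sets above background. The list median was -0.32. The median was -0.48 without treated array 28 and -0.20 without treated array 30. The metallothioneins are close copies of each other, and their signals may be shared. SLC39A14, a zinc and iron importer of the cell surface, gave 11.01, 11.10 and 11.35 in control cells and 10.72, 10.56 and 10.38 in treated cells. It was the member with non-overlapping arms, at a difference of -0.60 (-1.07 to -0.13). MT1X, MT1G and MT2A differed by -0.45, -0.31 and -0.29, and in MT2A treated array 28 lay with the controls.

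HLA class I presentation genes were above background for 10 of 14 measured. Treated cells had a lower mean in 9 and were lower without overlap in 2, against 54.4% and 3.49% of all probe sets above background. The list median was -0.14. The median was -0.0052 without treated array 30, -0.061 without control array 25, -0.25 without treated array 28 and -0.040 with the leading component as a covariate. With the spike-in mean as a covariate it was -0.14. The arms did not overlap for TAPBP, described above, and for CALR, the chaperone calreticulin, at a difference of -0.15 (-0.58 to 0.28). PSMB8, an immunoproteasome subunit, and HLA-F differed by -0.23 and -0.18, and B2M, the shared light chain, by -0.04. Housekeeping lists lay close to 0, with medians of -0.02 for 22 oxidative phosphorylation genes, -0.03 for 15 ribosomal protein genes and -0.03 for 25 proteasome genes above background.

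**Figure D5:**
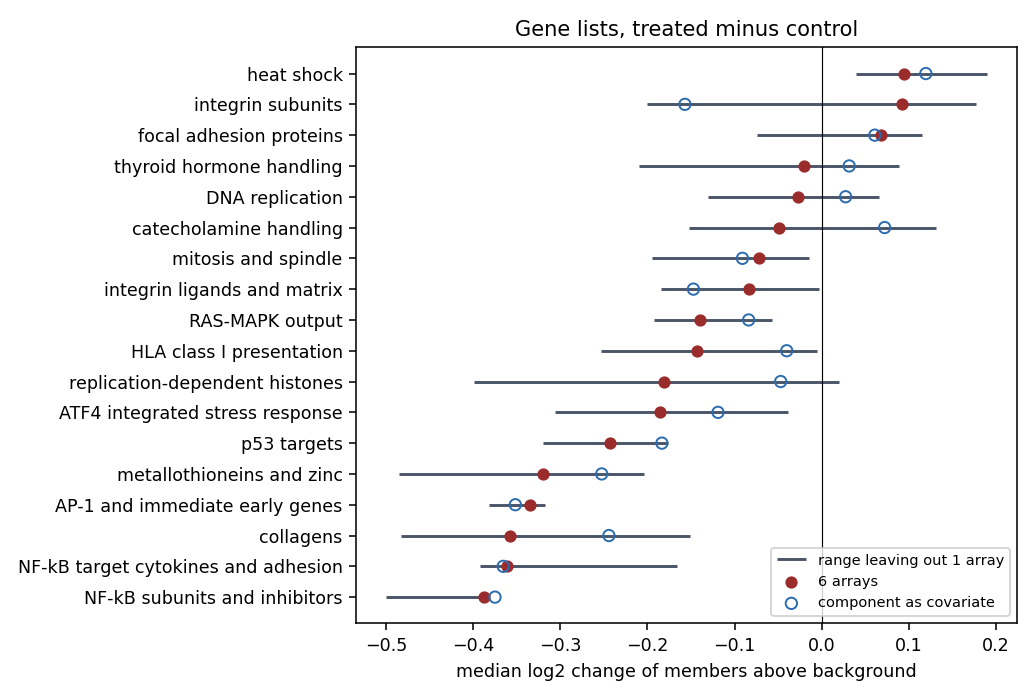
The median log2 difference between treated and control means over the members above background of 18 gene lists (filled points), its range when 1 array was left out at a time (lines) and its value with the leading component as a covariate (open points). Both NF-kB lists, the collagens and the AP-1 list have the lowest medians. The lines of 6 of the 18 lists cross 0, those of integrin subunits, focal adhesion proteins, thyroid hormone handling, catecholamine handling, DNA replication and replication-dependent histones.

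A small number of probe sets were above background on all arrays of 1 arm and on no array of the other. In 10 of the 20893 this was the treated arm and in 1 the control arm. The thresholds differ between arrays, and in some of the 10 the arms overlapped. PABIR3, a regulator of the phosphatase PP2A, gave 6.65, 6.604 and 6.70 in control arrays, not above background, and 7.37, 7.17 and 7.19 in treated arrays, which was at least 1.18-fold higher. Each bound sets the mean of the bright arm against the other arm, where each array counts with its threshold or with the measured signal, whichever is higher. MARK1, a microtubule affinity kinase, and ZNF790, a zinc finger gene, were at least 1.16-fold and 1.06-fold higher in treated cells. CCDC9B and FLOT2, with bounds of 1.14-fold and 1.09-fold, had overlapping arms. In CCDC9B control array 25, at 7.17, lay above treated array 28, at 7.15, yet under its own threshold of 7.23. MAN2B2, a lysosomal mannosidase, gave 7.34, 7.33 and 7.16 in control arrays and 6.90, 6.68 and 6.21 in treated arrays, and was at least 1.30-fold lower. None passed the adjusted test.

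Whether these differences belong to SK-N-AS was tested against SK-N-FI, which shares no array with it. The difference between the effects of the lines was called for 0 of 20893 probe sets (limma interaction, 0%), and 444 had an unadjusted p under 0.05 (2.13%). Of the 6533 probe sets above background, 37 did (0.566%). Of the 20 genes with the largest differences in SK-N-AS, all 10 higher and 7 of the lower genes were above background on all 4 SK-N-FI arrays. The SK-N-FI difference had the same sign in 6 of the 10 and 3 of the 7. YJU2B had a difference of 0.40 (-0.18 to 0.98) in SK-N-FI, and the effects differed by -1.07 (-1.81 to -0.32, interaction adjusted p = 1.00). YJU2B was chosen for its large SK-N-AS difference, which enters this comparison, so the interval is a description. TAPBP and SLC25A37 were above background on 2 of the 4 SK-N-FI arrays and FOSL1 on 0, so their SK-N-FI differences partly or wholly describe background.

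LIF, RELB, NFKB2 and TNFAIP3 were above background on 0 of the 4 SK-N-FI arrays, so a transcript difference in these genes could not be compared between the lines. CCNB1, above background on all 4 SK-N-FI arrays, had a difference of 0.37 there, and the effects differed by -0.76 (-1.45 to -0.07, interaction adjusted p = 1.00). CCNB1 was likewise named from its SK-N-AS values, which this comparison uses again. The array pattern was also compared. Over 5751 probe sets above background in both lines, the difference between control arrays 26 and 25 had a Pearson r of 0.018 with that between the SK-N-FI control arrays and of 0.182 with that between the SK-N-FI treated arrays.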

How the data were processed

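Total RNA of SK-N-AS and SK-N-FI cells was extracted with Trizol, biotin-labelled as sense targets and hybridised to Affymetrix whole-transcript arrays, per the labels' protocols. The table the authors deposited holds a log2 signal for each probe set and array. RMA and the Transcriptome Analysis Console, version 4.0.1.36, are listed in the submitters' processing notes. RMA equalises the arrays' distributions, so a shift shared by most genes would not be seen. The genome build and annotation of the probe sets were not given in the sources used here.

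From a table of 24351 probe sets, 20893 gene probe sets were used, 17705 with 1 symbol from the platform annotation and 3188 unnamed here, and 555 probe sets outside the gene identifiers were left out. All 17705 matched RefSeq (GRCh38.p14), which gave gene spans and promoter sequences. Where 17 symbols had several probe sets, lists used the brightest. Arrays have no read depth, and their number limits precision. Each array's background threshold lay between 6.75 and 7.23, and 33.3% to 40.2% of gene probe sets exceeded it.

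Groups came from the sample titles. Treated and control arrays of SK-N-AS were compared by lmFit and eBayes of limma (3.58.1, run in R 4.3.3; two-sided, no covariate, Benjamini-Hochberg over 20893 probe sets, threshold 0.05), and the difference between lines by an interaction over 10 arrays. The script was tested on simulated data. Gene lists (46) received no test. Named were the 10 largest differences in each direction without overlap, up to 4 members of each described list by p, 5 genes each of largest and smallest spread, the target genes, and genes bright in 1 arm only. Further list members, SEPTIN7 and the genes of the promoter search were named after their values were seen. The members and lists were chosen with earlier results of these data known, the lower NF-kB values included. Alternatives covered normalization, prior, array weights, filters, left-out arrays and the replicate block in SK-N-FI. Spike-in and component covariates and the exclusion of arrays 25 and 28 were added after seeing the data.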

Additional observations from a re-analysis of the deposited data

How the results depend on the processing

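No probe set was called in SK-N-AS under any alternative run, and the smallest adjusted p over these was 0.129, for the fit of probe sets above background alone with the within-arm component as a covariate (0.345 with the spike-in mean instead). Counts at an unadjusted p under 0.05 moved: with array weights they were 1100 of all probe sets and 149 above background, with the spike-in mean as a covariate 1270 and 278, with the within-arm component 1407 and 360, and with the component of all 6 arrays 984 and 137. Above background the count was 167 with the plain test, 622 and 745 in the fits of probe sets above background alone with the spike-in mean or the within-arm component, and 36 to 197 when 1 array was left out. At the 99th percentile of the negative controls 1717 probe sets were above background, 25 of them higher and 47 lower without overlap. Without arrays 25 and 28, 626 of 6533 were higher and 1317 lower without overlap, but arms of 2 arrays separate more readily than the full arms. The median SD of the control arm ranged from 0.162 to 0.278 when 1 array was left out. The count for the difference between the lines was 915 with array weights. SK-N-AS arrays share no replicate numbers, and with the replicate block on the SK-N-FI array number that count was 391 and 0 were called. Of 99 named genes, 14 changed sign under some alternative. Leaving out 1 array gave ranges of -0.71 to 1.14 for PI15, -0.088 to 1.67 for TAX1BP1, -0.29 to 1.33 for KIF5B, -0.026 to 1.59 for MBNL2, -0.25 to 1.33 for DEK, -0.42 to 0.84 for ITGAV, -0.39 to 0.024 for THRA, -0.21 to 0.13 for DDC, -0.21 to 0.45 for SLC6A2, -0.40 to 0.13 for ITGB3, -0.21 to 0.089 for RXRB, -0.090 to 0.34 for ITGB5 and -0.36 to 0.012 for HLA-F. With array weights PI15 was -0.016, ITGAV -0.059 and DDC 0.016. With the component of all 6 arrays PI15 was -0.46, KIF5B -0.11, DEK -0.036, ITGAV -0.19, RXRB 0.032 and DDC 0.072. Without arrays 25 and 28 SLC6A2 was -0.042, ITGB5 -0.18 and ITGA11 -0.016. The cause of these shifts was not tested. Medians of gene lists moved beyond their spread in 30 of the recomputed values and stayed within it in 360. Signals near background limit what can be said of the genes that did not exceed it on every array.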
